A study of Mus musculus with 5 samples.

Results

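The fetal testis is organised by its supporting cells, the Sertoli cells, and pre-granulosa cells are their counterparts in the fetal ovary. The contacts described here linked a gene promoter to a stretch of chromatin that was not itself a promoter chosen for capture. They were called in Sertoli cells and scored low in pre-granulosa cells. They numbered 4331 of the 22878 listed contacts between a promoter and a non-promoter bin on the same chromosome, over chromosomes 1 to 9. That share was 18.9%, against 5.88% (1346 contacts) for the mirror-image set, called in pre-granulosa cells and low in Sertoli cells. Set against the calls of its own cell type, the first set was 24.2% (23.6 to 24.9) of 17868 calls. The mirror-image set was 12.2% (11.6 to 12.8) of 11049. A further 6039 contacts were called in both cell types.

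Contacts were selected on their scores: a contact entered the set when its Sertoli score was at least 5 and its pre-granulosa score was above 0 and below 2. Contacts listed at 0 in pre-granulosa cells were left out of the set, because a listed 0 may stand for a bin without a usable value. Both scores therefore chose the contacts, and they are given below as a description. Distance, position relative to genes, grouping into runs and the sequence of the promoters were not used directly in the selection. Leaving out contacts listed at 0 still fell mostly on long distances. It removed 1 of 4766 Sertoli calls under 20 kb and 213 of 1014 between 200 and 500 kb.

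Both cell types were sorted by flow cytometry from mouse gonads at E13.5, a stage counted in days of embryonic development, about 100000 cells for a library, after the gonads had been parted from the mesonephros. Sertoli cells came from embryos with the Sox9IRES-GFP reporter and gave 3 libraries. Pre-granulosa cells came from embryos with the Enh8-mCherry reporter and gave 2 libraries. Each reporter marks the cells in which its own regulatory DNA is active, so the sort follows the reporter and not a full marker panel, and no transcript level was measured in these libraries. Chromatin was cut with DpnII, ligated and enriched for chosen promoter fragments, the baits. The strain, the number of embryos per library and the read depth were not given in the sources used here.

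The deposited values were scores of CHiCAGO, a caller that sets the read pairs joining a bait and another fragment against a background that depends on distance. A higher score stands for a smaller p-value after a weighting by distance, not for a stronger contact or more reads. The table holds 1 score per cell type, so the libraries of a cell type could not be compared and no difference below carries a replicate error or a p-value. The intervals given are 95% intervals that cover counting error only, and neighbouring bins share signal. Of the same 22878 contacts, 17868 were called in Sertoli cells, from 3 libraries, and 11049 in pre-granulosa cells, from 2. How far this difference in calls entered the set was not tested.

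Enhancers are stretches of DNA that bind transcription factors and act on promoters that may lie far away on the same chromosome. Chromatin looping can bring an enhancer and a promoter close together, and capture Hi-C records such proximity. Proximity alone does not show that a bin acts on the gene. In the testis, Sertoli cells begin to differentiate once Sry and Sox9 are active, surround the germ cells and build the testis cords.

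Because a contact joins a promoter to a distant bin, the promoters of 4 genes named below are shown first, the leading contact and 3 whose window held a motif. The sequences run from 250 bases before to 50 bases after a RefSeq start on GRCm38.p6, and these 4 windows lie inside the bait. Capitals mark matches to 3 short motifs that were searched on both strands: ACAAAG, read by SOX factors, AGATAA, read by GATA factors, and AAGGTCA, read by NR5A1. Factors of each kind act in the supporting cells of the gonad. Scnn1g, a subunit of the epithelial sodium channel, had the contact with the highest score, and its window, chr7:121734229-121734528 on the plus strand, held none of the motifs:
Scnn1g: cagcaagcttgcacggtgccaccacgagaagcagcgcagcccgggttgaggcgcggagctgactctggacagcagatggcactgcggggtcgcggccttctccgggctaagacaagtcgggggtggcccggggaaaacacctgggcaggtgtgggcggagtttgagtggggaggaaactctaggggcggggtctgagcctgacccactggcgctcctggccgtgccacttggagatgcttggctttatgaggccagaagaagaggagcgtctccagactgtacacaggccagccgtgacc
Cfap126, a gene of motile cilia, had the contact with the third highest score, and its window, chr1:171113736-171114035 on the plus strand, held the GATA motif:
Cfap126: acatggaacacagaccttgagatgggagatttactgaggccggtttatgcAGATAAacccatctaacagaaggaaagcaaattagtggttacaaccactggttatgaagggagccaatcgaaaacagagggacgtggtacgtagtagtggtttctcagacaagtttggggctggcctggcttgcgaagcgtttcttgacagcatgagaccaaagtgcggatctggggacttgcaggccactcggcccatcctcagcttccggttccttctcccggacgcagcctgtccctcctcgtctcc
Igf1r encodes a receptor for insulin-like growth factors, which is needed together with related receptors for testis formation in mice, and its window, chr7:67952007-67952306 on the plus strand, held the NR5A1 motif and the SOX motif, both on the opposite strand:
Igf1r: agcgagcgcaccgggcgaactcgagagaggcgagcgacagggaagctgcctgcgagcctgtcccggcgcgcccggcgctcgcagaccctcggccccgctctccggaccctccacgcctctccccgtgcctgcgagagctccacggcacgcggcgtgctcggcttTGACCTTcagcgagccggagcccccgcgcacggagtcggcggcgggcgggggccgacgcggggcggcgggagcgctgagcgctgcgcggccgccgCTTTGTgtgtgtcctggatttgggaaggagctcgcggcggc
Sox6, itself a SOX transcription factor, had a contact among the 5 longest, and its window, chr7:116038695-116038994 on the minus strand, held the SOX motif:
Sox6: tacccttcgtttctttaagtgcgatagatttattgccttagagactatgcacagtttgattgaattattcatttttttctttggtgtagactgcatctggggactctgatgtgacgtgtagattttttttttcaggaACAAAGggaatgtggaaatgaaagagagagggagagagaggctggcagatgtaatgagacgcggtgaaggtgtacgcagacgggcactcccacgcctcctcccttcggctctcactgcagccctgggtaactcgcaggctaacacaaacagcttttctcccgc

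Of the 8 windows found for the 10 contacts with the highest score, that of Cfap126 was the 1 with a match. Such matches were not seen more often where Sertoli-only contacts began. Of 1928 promoter windows whose start lay in a bait with at least 1 Sertoli-only contact, 17.1% (15.5 to 18.8) held the SOX motif, against 17.5% (16.0 to 19.1) of 2298 windows of the other baits with a listed non-promoter contact. The NR5A1 motif stood in 4.82% (3.95 to 5.87) and 4.57% (3.79 to 5.50) of the windows. The GATA motif was less frequent in the windows of Sertoli-only contacts, at 7.83% (6.71 to 9.12) against 10.7% (9.46 to 12.0). The median GC content differed too, at 57.3% against 55.3%, and its part in the GATA difference was not tested. Over all 4226 windows the shares were 17.3% for SOX, 9.37% for GATA and 4.69% for NR5A1. A match to so few letters is a description and not a binding site.

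The scores of the set lay close to the threshold. The Sertoli score ranged from 5.0 to 27.6 with a median of 6.04 (quartiles 5.42 and 7.16), and 48.5% of the contacts scored under 6. Only 20 contacts (0.462%) scored 15 or more. The pre-granulosa score ranged from 5.44e-05 to 1.99994 with a median of 1.20. It was at least 1.5 in 32.3% of the contacts and under 0.5 in 17.0%.

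The limits of the rule fell inside a continuous range. The contacts just inside on the pre-granulosa side were those of Klhl12 (1.99994), Adgrg1 (1.99958) and Smarcc1 (1.99927). Just outside stood contacts of Gm10643 and Rfx1 (2.00077), Actb (2.00107) and Eef2k (2.00134). The lowest Sertoli scores inside were those of Trmt1 and Nacc1 (5.00011), Tmem128 (5.00035) and Rbak and Spdye4b (5.00044). No contact could stand just outside on that side, because the number of rows with both scores under 5 was 0.

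**Figure D1:**
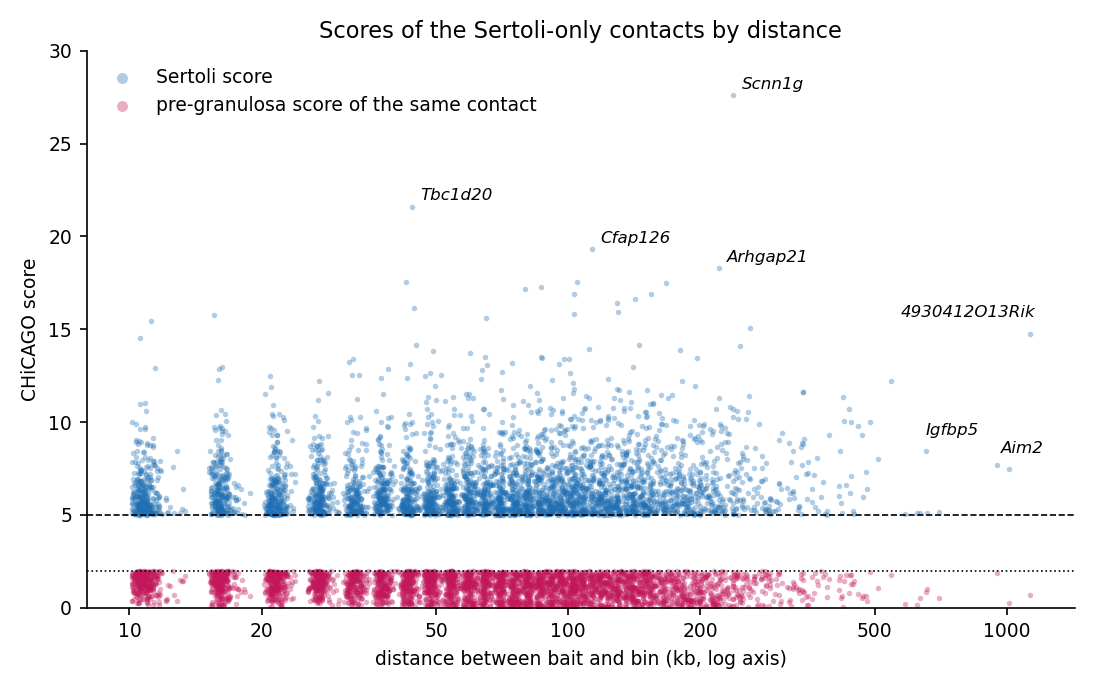
Sertoli score (blue) and pre-granulosa score (red) of the same 4331 contacts on the vertical axis, against the distance between bait and bin in kb on a log axis, with dashed and dotted lines at the limits of 5 and 2. Of the blue points 48.5% lie between 5 and 6, and the named contacts reach 27.6 (Scnn1g) and 1128 kb (4930412O13Rik).

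Sertoli-only contacts reached further than contacts found in both cell types. Their median distance was 64.1 kb (61.0 to 65.6), against 27.3 kb (26.8 to 28.1) for contacts called in both. It lay close to that of the pre-granulosa-only contacts, at 61.5 kb (57.5 to 66.7), whose interval overlapped. The shortest Sertoli-only contact spanned 10.1 kb and the longest 1128 kb.

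By distance, 12.8% of the Sertoli-only contacts lay under 20 kb, 27.7% between 20 and 50 kb, 29.6% between 50 and 100 kb, 23.5% between 100 and 200 kb, 6.12% between 200 and 500 kb and 0.254% (11 contacts) at 500 kb or more. Of all Sertoli calls, the Sertoli-only contacts were 11.6% (10.7 to 12.5) under 20 kb and 32.6% (31.0 to 34.3) between 100 and 200 kb, and 26.1% (23.5 to 28.9) between 200 and 500 kb. The rule left out Sertoli calls listed at 0 in pre-granulosa cells. These were 1 of 4766 calls under 20 kb, 298 of 3127 between 100 and 200 kb and 213 of 1014 between 200 and 500 kb. The fall from 32.6% to 26.1% holds only with these calls left out. The pre-granulosa-only share of all pre-granulosa calls was 6.45% (5.71 to 7.28) under 20 kb and 19.6% (17.7 to 21.6) between 100 and 200 kb. Contacts called in 1 cell type and low in the other thus made their smallest share of calls near the bait.

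**Figure D2:**
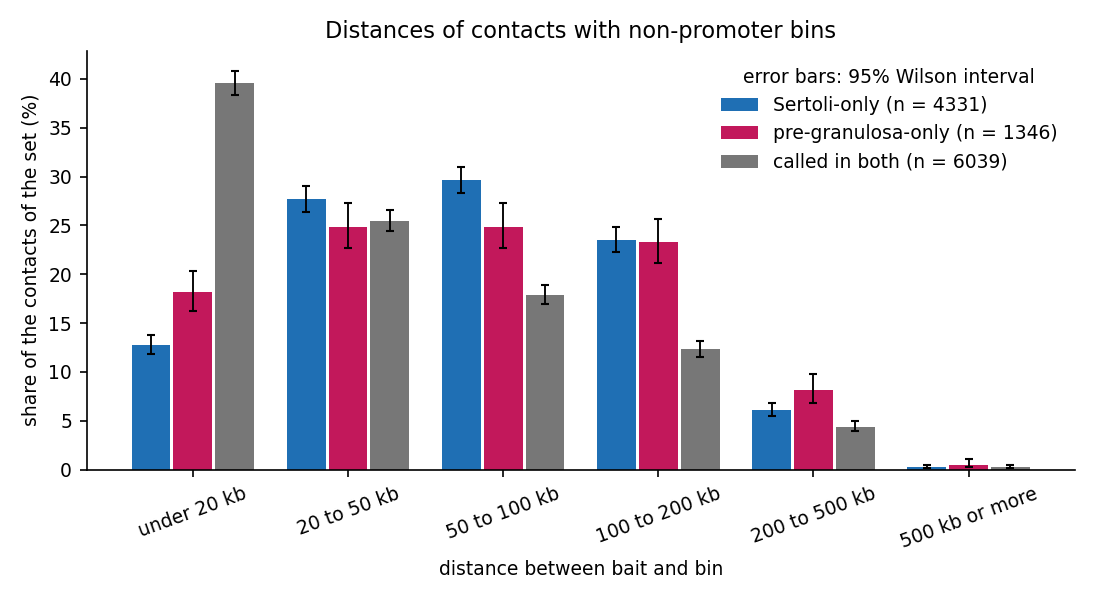
Share of contacts in each distance band, in percent of the set, for Sertoli-only (blue), pre-granulosa-only (red) and shared contacts (grey), with 95% Wilson intervals. Shared contacts peak under 20 kb, whereas Sertoli-only contacts peak between 50 and 100 kb, at 29.6%.

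Most bins lay inside genes, though seldom inside the gene whose promoter they touched. The midpoint of the bin fell in a protein-coding gene for 64.5% (63.1 to 65.9) of the Sertoli-only contacts, 59.9% (57.2 to 62.5) of the pre-granulosa-only contacts and 64.2% (63.0 to 65.4) of those called in both. It fell in the gene of the bait for 20.8% (900 contacts), only in another protein-coding gene for 43.7% (1894) and in none for 35.5% (1537). The share in the bait gene was 23.0% for pre-granulosa-only contacts and 31.1% for contacts called in both.

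The lower share in the bait gene went with distance. Under 20 kb it was 46.8% (42.7 to 51.0) for Sertoli-only contacts and 48.5% (46.5 to 50.5) for contacts called in both. Between 50 and 100 kb it was 16.6% (14.7 to 18.7) and 16.2% (14.1 to 18.5). Within a distance band the intervals of these sets overlapped in all 5 bands under 500 kb. Between 20 and 50 kb the bins of Sertoli-only contacts were more often in any protein-coding gene than those of pre-granulosa-only contacts, at 70.3% (67.6 to 72.8) against 61.5% (56.2 to 66.5). In the other bands these intervals overlapped, and the order turned between 50 and 100 kb (64.1% against 65.1%) and between 200 and 500 kb (46.4% against 54.5%).

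**Figure D3:**
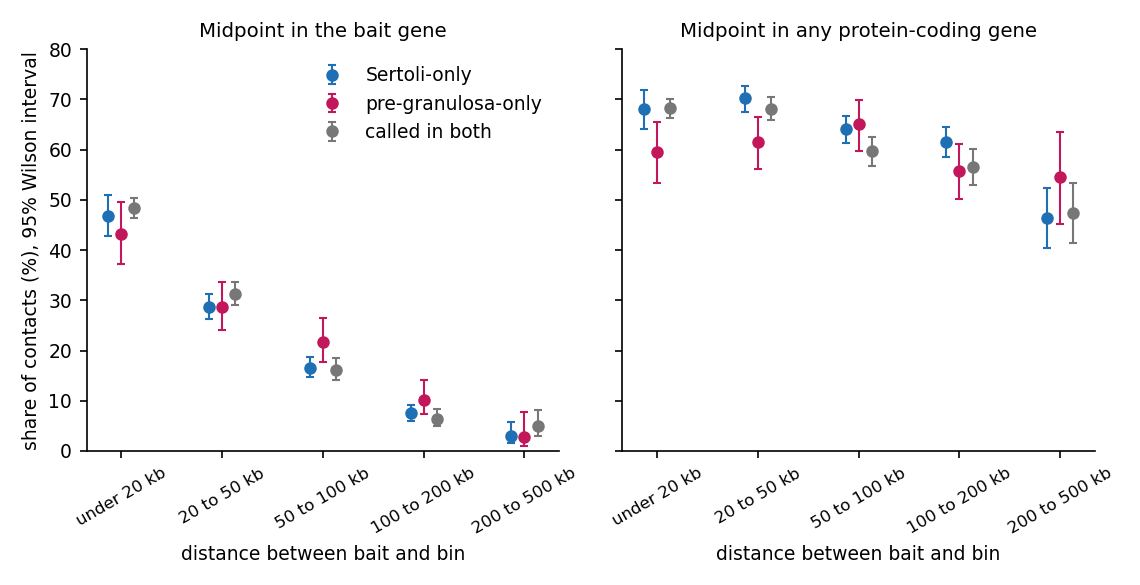
Share of contacts, in percent with 95% Wilson intervals, whose bin midpoint lies in the bait gene (left) or in any protein-coding gene (right), by distance band, for Sertoli-only (blue), pre-granulosa-only (red) and shared contacts (grey). In the left panel the share falls with distance in each set, from 46.8% under 20 kb to 3.02% between 200 and 500 kb for Sertoli-only contacts.

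The bins lay in similar numbers on both sides of the promoter. For bait genes on a single strand, 48.7% (47.1 to 50.4) of 3498 Sertoli-only contacts ran upstream, and 54.0% (52.1 to 55.9) of the 2744 among them whose bin lay outside the bait gene. The corresponding upstream share outside the bait gene was 55.7% (54.0 to 57.4) for contacts called in both. Many contacts passed over other genes. No start of another protein-coding gene lay between bait and bin in 50.6% (49.1 to 52.1) of the Sertoli-only contacts, against 58.2% (55.5 to 60.8) of the pre-granulosa-only contacts and 68.3% (67.1 to 69.4) of those called in both. A contact of Aim2, a cytosolic DNA sensor, passed over 23 of them, the most in the set. The Sertoli-only contacts were also longer than those called in both (median 64.1 against 27.3 kb). The shares with no start between were not split by distance.

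The label "non-promoter" follows the bait names of the table, and it was checked against RefSeq. A RefSeq start of any kind lay in the bin of 166 contacts (3.83%), and a protein-coding start in that of 57 (1.32%). For contacts called in both these shares were 4.57% and 1.59%.

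The 4331 contacts came from 2631 baits and reached 3966 different bins, in numbers per chromosome that ran from 335 on chromosome 3 to 734 on chromosome 7. Set against all listed contacts, the share ran from 16.4% (14.9 to 18.1) on chromosome 6 to 22.2% (20.4 to 24.2) on chromosome 8. A single Sertoli-only contact was found for 1638 baits, 2 contacts for 595, 3 for 225, and 4 or more for 173. The last group was 6.58% of the baits and held 19.1% (828) of the contacts.

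Of the 2631 baits, 360 (13.7%, 12.4 to 15) had no pre-granulosa call at any listed bin, and the others had such a call elsewhere. The share was close to that of all baits with a Sertoli call at a non-promoter bin, 673 of 4945 (13.6%, 12.7 to 14.6). In the other direction, 202 of the 1147 baits of pre-granulosa-only contacts (17.6%, 15.5 to 19.9) had no Sertoli call. This was above the share of all baits with a pre-granulosa call at a non-promoter bin, 502 of 4232 (11.9%, 10.9 to 12.9). Of the 3966 bins, 968 (24.4%, 23.1 to 25.8) were called in pre-granulosa cells from another promoter. The same share was not computed over all listed bins or for the other sets, so whether it is high or low cannot be said. By gene, 2444 of 5075 with a listed non-promoter contact had a Sertoli-only contact (48.2%), 1147 had a pre-granulosa-only contact (22.6%), and 474 had both kinds.

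Bins beside a Sertoli-only contact carried a call less often than bins beside contacts called in both. The pre-granulosa score helped to choose both sets and neighbouring bins share signal, so this is a description. Contacts called in both also lay nearer to the bait (median 27.3 against 64.1 kb) and scored higher (median Sertoli score 8.42 against 6.04). The part of each was not tested. In 44.7% (43.2 to 46.2) of the Sertoli-only contacts a neighbouring bin carried a Sertoli call of the same bait, against 70.2% (69.0 to 71.3) of contacts called in both. In 23.4% (22.2 to 24.7) it carried a pre-granulosa call of the same bait, against 59.5% (58.2 to 60.7) for contacts called in both, and at a pre-granulosa score of at least 3 the share was 34.0%. Of the pre-granulosa-only contacts, 20.9% (18.8 to 23.1) lay beside a pre-granulosa call and 19.1% (17.1 to 21.3) beside a Sertoli call of the same bait. Among the contacts that meet the same limits in a second deposited table, scored with the original single-fragment baits, the share beside a pre-granulosa call was 10.7%. That table differs in its bins and its contacts as well as its baits, and the part of each in this gap was not tested.

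Sertoli-only bins of a bait touched each other in 218 runs, which held 449 contacts (10.4%, 9.49 to 11.3). There were 206 runs of 2 bins, 11 runs of 3 and 1 run of 4. The share was 2.90% (2.13 to 3.94) for pre-granulosa-only contacts and 36.2% (35.0 to 37.4) for contacts called in both. The sets differ in size and in calls per bait, so these shares also move with how many bins were called.

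The leading contact by score joined Scnn1g to a bin in Cog7, a Golgi transport gene, at chr7:121968597-121973601, 238.0 kb away. Its Sertoli score was 27.6 and its pre-granulosa score 1.51. In the second deposited table, which used the original single fragments as baits and bins of its own, the overlapping bin scored 25.9 and 5.10 and covered 88.6% of this one. In that table the contact was therefore called in both cell types.

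The next contact joined Tbc1d20, a regulator of the small GTPase Rab1, to a bin 44.0 kb away, with scores of 21.6 and 0.875. A contact of Cfap126 over 113.2 kb scored 19.3 and 1.67. Arhgap21, a regulator of actin organisation, contacted a bin in Enkur over 220.3 kb with 18.3 and 1.73. Of the 10 highest-scoring contacts this was the exception in that no bin beside it was called in either cell type. The other 9 each lay beside a bin of the same bait called in Sertoli cells and beside 1 called in pre-granulosa cells.

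The remaining 6 of the 10 scored between 16.9 and 17.5 in Sertoli cells. Rfx5, a transcription factor of MHC class II genes, contacted a bin in Pi4kb over 42.7 kb, with a pre-granulosa score of 0.662. Abcc8, a subunit of a potassium channel of the beta cell, contacted a bin in Ush1c over 104.7 kb, with 0.407. Hpdl contacted a bin in Zswim5 over 167.1 kb, with 1.38. Gask1b contacted a bin in no protein-coding gene over 154.5 kb, with 1.85.

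Dst and Ptpre contacted bins inside their own genes. Dst encodes a linker of cytoskeletal filaments, and its contact spanned 86.7 kb with scores of 17.3 and 1.58. Ptpre encodes a receptor-type tyrosine phosphatase, and its contact spanned 79.6 kb with scores of 17.2 and 0.0606. Among the 10 contacts the pre-granulosa score of Ptpre was the lowest, and in the table with the original baits it was 0.212.

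The 5 longest contacts had Sertoli scores from 5.11 to 14.8. The promoter shared by the uncharacterised transcripts 4930412O13Rik and 9230102O04Rik contacted a bin 1128 kb away, chr2:8751219-8756972, with scores of 14.8 and 0.679. Aim2 reached over 1013 kb with 7.46 and 0.249, and Upp2, a uridine phosphorylase, over 700.0 kb with 5.15 and 0.527. Igfbp5, a binding protein of insulin-like growth factors, contacted a bin 947.2 kb away, chr1:73818796-73823839, with 7.72 and 1.88. In the table with the original baits Igfbp5 scored 8.11 and 1.97 and met the same limits. The others did not meet them there: Aim2 scored 13.496 and 2.76 in a bin that covers 46.9% of its own, the 4930412O13Rik contact 6.02 and 0, and those of Upp2 and Sox6 were not listed.

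The bait shared by Sox6 and 1110004F10Rik contacted a bin at chr7:115379332-115384397, 658.5 kb away, with 5.11 and 1.0. No start of another protein-coding gene lay between. Among the 5 longest contacts this was the single case in which a bin beside it was called in Sertoli cells, and none of the 5 had a bin beside it called in pre-granulosa cells.

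Some promoters gathered many Sertoli-only contacts. The bait of Gemin7, whose protein belongs to the SMN complex that assembles spliceosomal particles, had 14, the most in the set. They lay on both sides, 9 to the left and 5 to the right, 16.8 to 154.5 kb away. Their Sertoli scores ran from 5.02 to 12.7 with a median of 7.74, and their pre-granulosa scores from 0.308 to 1.98 with a median of 1.16. At non-promoter bins 22 calls of this bait came from Sertoli cells and 1 from pre-granulosa cells, and 33 against 4 when promoter bins were included. The bait was chosen for its number of Sertoli-only contacts, each of which is by rule a call in Sertoli cells alone, so this excess is a description.

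None of the 14 bins lay in Gemin7 itself. The highest, with 12.7 and 0.345, lay in Nkpd1 at a distance of 48.5 kb, and others lay in Ckm, the muscle creatine kinase, Ppp1r37, Clasrp, Relb, an NF-kappa-B subunit, and Clptm1. The longest run of the set also belonged to this bait. It covered 4 touching bins over 21.1 kb in Mark4, a kinase of microtubule-associated proteins, at chr7:19436109-19457207. In Sertoli cells its bins scored 7.72, 5.52, 8.69 and 6.91, and in pre-granulosa cells they scored 1.43, 1.20, 1.27 and 1.19.

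Fryl, Fubp3, Sugp2 and Rere followed with 8 Sertoli-only contacts each. Rere encodes a nuclear receptor coregulator, and 7 of its 8 bins lay in its own gene. They spanned 20.4 to 227.8 kb with Sertoli scores of 5.26 to 9.66, beside 21 Sertoli calls and 7 pre-granulosa calls at non-promoter bins. Fryl had 5 bins in its own gene and 3 beyond it, the highest of which lay in Ociad1 with 13.9 and 1.11. Its bait had 36 Sertoli and 12 pre-granulosa calls, so it was rich in contacts in both cell types.

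Fubp3, which encodes a single-strand binding protein, had 7 of its 8 bins to the left, 2 of them in its own gene. The Sertoli scores ran from 5.65 to 9.80 and the calls of the bait numbered 19 against 2. Sugp2, a gene with a splicing-factor-like G-patch domain, had no bin in its own gene, Sertoli scores of 5.02 to 9.72, and 14 calls against 2. Of these 5 baits, Gemin7 and Sugp2 had all their Sertoli-only bins outside the bait gene.

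**Figure D4:**
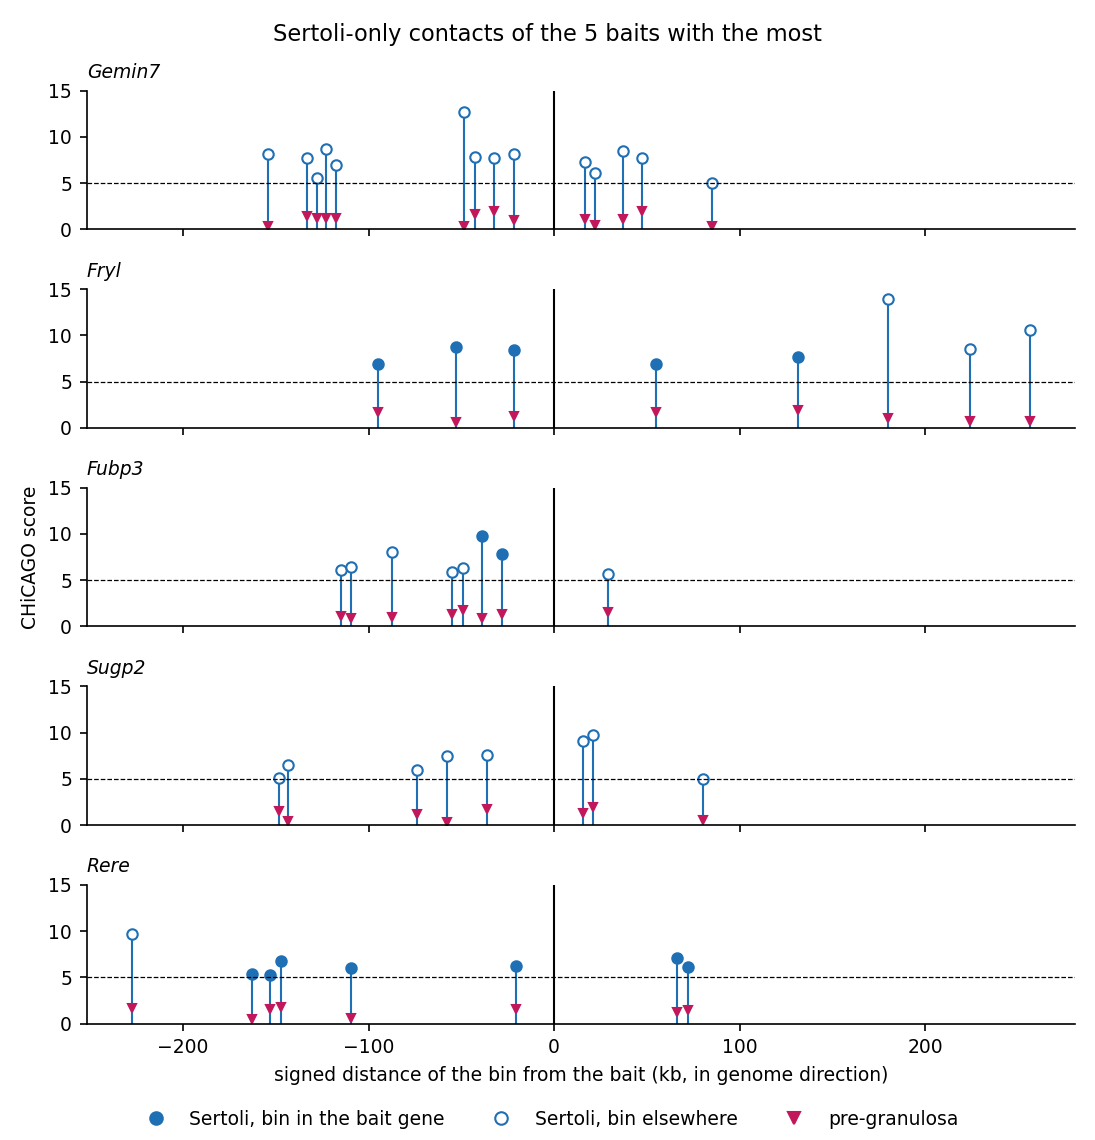
CHiCAGO scores of the Sertoli-only contacts of the 5 baits with the most, against the signed distance of the bin from the bait in kb, with Sertoli scores as circles (filled where the bin lies in the bait gene) and pre-granulosa scores as triangles. Gemin7 has 14 bins on both sides, none filled, while 7 of the 8 circles of Rere are filled.

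The other 4 of the 5 leading runs had 3 bins each. Deaf1, a transcription factor, touched 3 bins in Eps8l2, a gene of the actin cytoskeleton, scoring 5.79, 12.4 and 6.92 in Sertoli cells against 0.307, 0.0895 and 1.78 in the other cell type. A second promoter of Dst touched 3 bins in its own gene, 58.0 to 68.6 kb away, with 5.35, 12.3 and 6.64 against 0.764, 0.838 and 0.327. Abhd16b touched 3 bins in Zbtb46, a transcription factor gene, with 11.9, 5.67 and 6.77 against 0.0913, 1.77 and 1.84. Klhdc9 touched 3 bins in no protein-coding gene, with 6.05, 5.10 and 11.1 against 0.151, 0.136 and 0.689. In each of these 4 runs a single bin had a Sertoli score above 11, and its neighbours scored under 7. These 4 were taken from the 11 runs of 3 bins by their Sertoli score, so the presence of a high bin follows from the choice.

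Shared bins were the counterpart of such baits. Of the 3966 bins, 327 were reached by at least 2 promoters of the set, and the most was 4. A bin in Pi4kb, a lipid kinase gene, at chr3:94992023-94997306, was contacted by Selenbp1 (Sertoli score 7.50), Rfx5 (17.5) and both promoters of Pi4kb (5.81 and 7.85). Their pre-granulosa scores were 1.04, 0.662, 1.90 and 1.81. All 4 listed contacts of this bin were Sertoli-only.

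A bin in Unc13a, at chr8:71647363-71652375, was contacted by Fam129c (5.06), Colgalt1 (5.34) and Unc13a itself (14.5), and these 3 were its only listed contacts. For both of these bins no promoter had a pre-granulosa call.

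Other shared bins were also called in pre-granulosa cells from different promoters. The bin at chr7:141357311-141363151, in Eps8l2, was reached by Irf7 (5.59), Sct (8.61), Tmem80 (8.84) and the bait of Cracr2b and Cd151 (7.47). It had 11 listed contacts, 2 of them with a pre-granulosa call. The bin at chr7:100640584-100646096 was reached by Dnajb13 (5.21), Coa4 (5.75), Mrpl48 (6.51) and Plekhb1 (5.09), and 2 of its 6 listed contacts had a pre-granulosa call.

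In windows of 1 Mb, in which a contact was placed by its bin, 688 of the 958 windows with a listed contact held a Sertoli-only contact, with a median of 4. The fullest window, chromosome 2 from 25 to 26 Mb, held 59 contacts of 30 baits, 26.3% (21.0 to 32.5) of its 224 listed contacts. Their promoters included those of Entpd2, Abca2, Anapc2, several lipocalin genes and Sohlh1, a transcription factor of germ cells. The window from 19 to 20 Mb on chromosome 7, reached by promoters such as those of Gemin7, Apoe and Relb, held 49, or 30.8% (24.2 to 38.4) of 159. Both shares lay above the 18.9% over all contacts.

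The window from 95 to 96 Mb on chromosome 3 held 48 contacts (25.5%, 19.8 to 32.2) and that from 141 to 142 Mb on chromosome 7 held 46 (26.1%, 20.2 to 33.1). The window from 45 to 46 Mb on chromosome 7 held 39, but its share was 17.3% (12.9 to 22.8) of 225 listed contacts. Its count was therefore that of a window with many listed contacts. Windows were ranked on counts of the set itself, so these shares are a description.

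Genes that define Sertoli cells had Sertoli-only contacts at about the share of all genes' contacts: 4 of their 21 listed contacts were Sertoli-only (19.0%, 7.67 to 40.0), against 18.9%. Of 35 Sertoli genes in the list, 9 had any listed non-promoter contact on chromosomes 1 to 9, and 3 had a Sertoli-only contact, against 48.2% over all genes. Sox13, a SOX factor, contacted a bin at chr1:133599701-133604896, 210.8 kb away, with scores of 9.63 and 0.798. Gstm6, a glutathione transferase, had contacts over 76.3 kb (5.71 and 1.92) and 33.2 kb (5.21 and 1.93), and Col9a3, a collagen chain, over 81.7 kb (5.02 and 1.62). Sox13 alone among them was well clear of both limits.

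For the other Sertoli genes, Ptgds, Wt1, Defb19, Inha, Nr5a1 and Cldn11, the number of Sertoli-only contacts was 0. Wt1 had 2 Sertoli calls and Defb19 and Inha 1 each, with 0 pre-granulosa calls, but outside the limit on the pre-granulosa score. Nr5a1 and Cldn11 had a pre-granulosa call each and 0 Sertoli calls. The pre-granulosa call of Cldn11 was a pre-granulosa-only contact. Among pre-granulosa genes, 2 of the 7 with a listed contact had a Sertoli-only contact, and 3 of the 7, Lef1, Nkd1 and Pax8, had a pre-granulosa-only contact. Nkd1, an inhibitor of WNT signalling, had the higher score of the 2 Sertoli-only contacts, over 11.7 kb (7.89 and 1.996). By contacts this was 2 of 26 (7.69%, 2.14 to 24.1).

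Of 5 early gonad genes, Igf1r contacted a bin in its own gene over 10.9 kb (5.95 and 1.19) and Lhx2, a LIM homeobox factor, a bin over 16.8 kb (5.50 and 1.98). Igf1r also had 1 pre-granulosa-only contact. Wt1, Nr5a1 and Lhx9 had 0 Sertoli-only contacts. These are counts of few genes, and their intervals span the share over all genes: 33.3% (12.1 to 64.6) for Sertoli genes, 28.6% (8.22 to 64.1) for pre-granulosa genes and 40.0% (11.8 to 76.9) for early gonad genes.

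Genes of other cells of the gonad had such contacts too. Scarb1, which takes up lipoprotein cholesterol, had 3, with scores of 8.71 and 0.978, 8.50 and 0.922, and 6.55 and 1.93. Cyp11a1, the enzyme that begins steroid synthesis, had 1 inside its own gene with 5.86 and 1.75. Pdgfra, the third steroidogenic cell gene with a listed contact, had 0. In the opposite direction Cyp11a1 had 2 pre-granulosa-only contacts and Pdgfra 1. By contacts, 4 of the 37 listed for these genes were Sertoli-only (10.8%, 4.29 to 24.7), an interval that holds the 18.9% over all contacts.

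The germ cell gene Nanos2, an RNA-binding protein of male germ cells, had 3 Sertoli-only contacts, with scores of 9.0 and 1.01, 6.13 and 0.329, and 5.91 and 1.38. Nanos3 had 1 (5.92 and 1.07) beside 3 pre-granulosa-only contacts, and Nanog had 1 (5.31 and 0.750). Mael, with 3 listed contacts, had 0. By contacts, germ cell genes reached 31.3% (5 of 16, 14.2 to 55.6), an interval that also holds the 18.9% over all contacts.

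Of 11 endothelial and blood genes with a listed contact, 4 had a Sertoli-only contact (36.4%, 15.2 to 64.6, against 48.2% over all genes). Of their 49 listed contacts 7 were Sertoli-only (14.3%, 7.10 to 26.7, against 18.9% over all contacts), and Egfl7, Sox18 and Tek had a pre-granulosa-only contact each. Esam, an endothelial adhesion molecule, had 4 with Sertoli scores from 5.25 to 7.2. Cdh5, Spi1 and Tal1 had 1 each, at 5.90, 5.33 and 5.17. The share of other cells in the sorted libraries was not tested, since no transcript was measured.

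The intervals of the signalling lists spanned the share over all contacts, apart from that of the Notch list. Of WNT genes, 12 of 54 listed contacts were Sertoli-only (22.2%, 13.2 to 34.9), led by the receptor Lgr4 over 272.6 kb (9.92 and 1.89), Ctnnb1, which encodes beta-catenin, over 57.7 kb (9.71 and 1.17), Nkd1, named above (7.89 and 1.996), and Wnt7a over 113.6 kb (7.72 and 1.83). Of TGF-beta and BMP genes, 12 of 58 were (20.7%, 12.3 to 32.8), led by the signal transducer Smad3 over 134.1 kb (10.6 and 0.552) and the receptor Tgfbr1 over 101.1 kb (10.2 and 0.611). Smad3 and Ctnnb1 had 5 Sertoli-only contacts each and 1 pre-granulosa-only contact each, and Lgr4 had 2 of each kind. The WNT list had 5 pre-granulosa-only contacts and the TGF-beta and BMP list had 3.

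Of FGF, IGF and Hedgehog genes, 9 of 65 listed contacts were Sertoli-only (13.8%, 7.46 to 24.3). Fgfrl1, an FGF receptor without a kinase domain, had 3 of them, with 11.2 and 1.02, 8.06 and 1.75, and 6.33 and 1.09, the last 2 bins by distance touching each other. Fgfr2, the receptor of FGF9 in the developing testis, had 6 listed contacts and 0 Sertoli-only contacts.

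All 8 Notch pathway genes with a listed contact had at least 1 Sertoli-only contact (67.6 to 100%), against 48.2% of all genes with a listed contact. Of their 24 listed contacts 10 were Sertoli-only (41.7%, 24.5 to 61.2), against 18.9% of all listed contacts. Notch1, a receptor, contacted a bin over 31.2 kb with 7.63 and 0.769. The effector Hey1 contacted a bin over 62.4 kb with 6.12 and 0.317. Both promoters of Hes3 had a contact, with 5.65 and 1.49 and with 5.27 and 1.42. The others were Dll3, a ligand, with 2 contacts up to 5.25, Hes2 (5.06), Hes5 (5.12), Hes6 (5.11) and Maml2 (5.07), a coactivator, which also had 2 pre-granulosa-only contacts. The median Sertoli score of the 10 was 5.18, nearer to the threshold than the 6.04 of the whole set, and the list was one of 13.

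The larger lists lay near the share over all contacts. It was 21.9% (17.1 to 27.6) for matrix and adhesion genes, 21.7% (16.9 to 27.3) for developmental transcription factors and 18.6% (15 to 22.9) for cytoskeleton genes. In the same order these lists had 18, 19 and 21 pre-granulosa-only contacts. Leading contacts were those of Adamts9, a matrix protease, in its own gene (10.3 and 1.16), Klf3 over 422.3 kb (11.4 and 0.0653), Runx3 over 28.3 kb (9.27 and 0.623) and Arhgef2, a microtubule-associated exchange factor, over 27 kb (12.2 and 1.49). Nr6a1, an orphan nuclear receptor, scored 10.3 and 1.78, but 11.8 and 7.84 in the table with the original baits, in a bin that covers 48.9% of its own. The overlapping contact too was called in both cell types there. Klf3, Arhgef2 and Nr6a1 had 2 pre-granulosa-only contacts each, Runx3 had 1 and Adamts9 had 0.

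**Figure D5:**
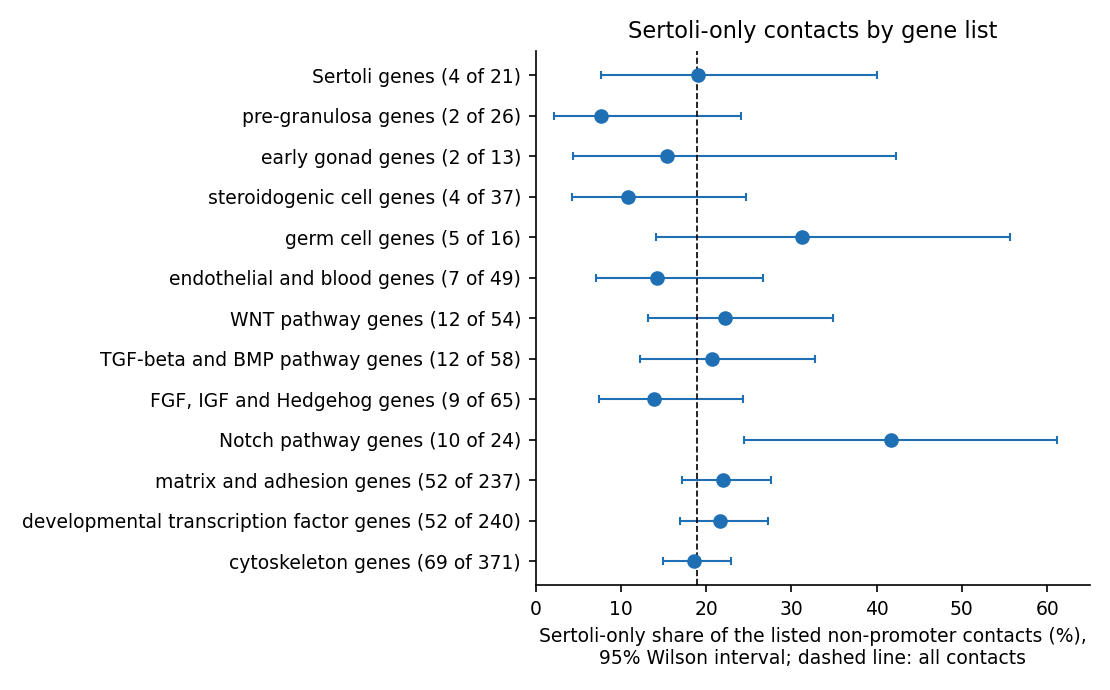
Sertoli-only contacts as a share of the listed non-promoter contacts of each gene list, in percent with 95% Wilson intervals, with the counts beside each name and a dashed line at the share over all contacts. The dashed line at 18.9% crosses every interval but that of the Notch pathway genes, whose point is at 41.7%.

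Some bins held genes of microRNAs, the short RNAs that repress messenger RNAs with which their seed pairs. A RefSeq hairpin lay in the bin of 22 Sertoli-only contacts (0.508%, 0.336 to 0.768), with 18 microRNA genes, against 2 pre-granulosa-only contacts (0.149%, 0.0408 to 0.540) and 27 contacts called in both (0.447%, 0.307 to 0.650). The mature sequences of 4 widely conserved ones are shown, from RefSeq on GRCm38.p6, with bases 2 to 8, the seed, in capitals. They have 4 different seeds:
let-7g-5p: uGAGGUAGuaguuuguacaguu
miR-199a-5p: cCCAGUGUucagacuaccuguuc
miR-26b-5p: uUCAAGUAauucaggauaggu
miR-210-3p: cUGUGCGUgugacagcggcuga
The bin with Mirlet7g was contacted by Twf2, an actin-binding protein, over 32.9 kb with scores of 5.75 and 1.14. The bin with Mir199a-1 was contacted by Qtrt1, a tRNA-modifying enzyme, over 76.1 kb with 6.61 and 1.76, and the bin with Mir26b by Tmbim1 over 88.5 kb with 5.11 and 1.39. The bin with Mir210 was contacted by 2 baits, that of Pidd1 and Rplp2 over 223.2 kb (5.11 and 1.57) and that of Cdhr5 over 53.0 kb (5.05 and 1.56). All but the contact of Qtrt1 scored under 6, and a hairpin inside a bin of about 5 kb does not show that it is the part in contact.

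The table with the original baits gave a second scoring of the same libraries. Of the 4331 contacts, 4169 (96.3%) had a bait that overlapped an original bait with a listed contact, and in 2865 (66.2%, 64.7 to 67.5) a bin listed for it overlapped the bin of the contact. The bins of the tables differ: the overlapping bin covered the whole bin in 1377 of the 2865, a median of 91.2% of it, and at least 50% of it in 2507. A Sertoli score of at least 5 was found there for 2850 (65.8%). Of the 2865, 70.7% (69.0 to 72.3) kept a pre-granulosa score above 0 and below 2, 22.3% had 2 to under 5, 2.44% (70) had at least 5 and 4.54% were listed at 0.

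A Sertoli score of at least 5 was found there for 65.8% (64.4 to 67.2) of the Sertoli-only contacts and for 73.3% (72.2 to 74.4) of those called in both. A pre-granulosa score of at least 5 was found for 49.2% (46.5 to 51.9) of the pre-granulosa-only contacts and for 56.1% (54.9 to 57.4) of those called in both. Both tables come from the same libraries, so this is not a replicate, and they differ in bins as well as baits.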

How the data were processed

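Capture Hi-C libraries of sorted Sertoli cells (3) and pre-granulosa cells (2) were scored by the authors. The deposited tables give CHiCAGO scores, 1 per contact and cell type, and per the labels' descriptions all libraries of a cell type stand behind 1 column. The labels say this for the table with the original baits; the columns of the table with the extended baits were matched by their names alone. Coordinates are on mm10, per the submitters' processing notes. The caller's version, read filters, read depth and the way libraries were combined were not given in the sources used here. The table with the extended baits was used, restricted to cis contacts of chromosomes 1 to 9 whose other end has no bait name. The distance column equalled the difference of midpoints, within 1 bp, in 51524 of 51524 cis rows.

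From these scores, contacts were selected, counted and compared with Python 3.11.15, pandas 2.3.3, numpy 2.4.6 and scipy 1.17.1. Shares carry 95% Wilson intervals and medians 95% order-statistic intervals. The code for runs, neighbours and intervals was tested on simulated data. The scores used here hold no value per library, so no p-value was computed. Genes, hairpins and promoters came from RefSeq on GRCm38.p6, the same assembly, in which 4970 of 5075 bait gene symbols were found. A bin was placed by its midpoint.

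The contacts and the 13 gene lists were chosen with earlier results of these data known, and 51 symbols that only share a prefix were removed by name. The text names the 10 contacts with the highest Sertoli score, the 5 longest, and the 5 leading runs, baits, bins and windows; 1 of these bins and 1 list contact are not reported here. It also names contacts of the cell type lists, contacts drawn from the 4 leading ones of each other list, and contacts at the limits. The Notch genes, the microRNAs shown and genes given with 0 contacts were named after their values were seen.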

Additional observations from a re-analysis of the deposited data

Results flagged for a closer look

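Sertoli-only contacts outside the main set were found on the X chromosome. There, 30 of 403 listed non-promoter contacts (7.44%, 5.26 to 10.4) met the score limits, with a median distance of 73.0 kb, and 131 (32.5%, 28.1 to 37.2) met the mirror-image limits of pre-granulosa cells. The direction is opposite to that of chromosomes 1 to 9, where 18.9% and 5.88% did. The 3 highest were a contact of Brs3 over 201.0 kb (14.1 and 0.574) and contacts of Rbbp7 over 43.7 kb (10.7 and 0.672) and 38.1 kb (9.60 and 1.26), which touched each other. Cells of the testis and of the ovary also differ in their number of X chromosomes, and the part of this was not tested. No test of the difference between the chromosomes was possible with 1 score per cell type.

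A further 593 Sertoli calls at non-promoter bins on chromosomes 1 to 9 had a listed value of 0 in pre-granulosa cells and so fell outside the set. They spanned a median of 175.7 kb (167.1 to 187.3), 40.0% of them (237) lay at 200 kb or more, and their Sertoli scores reached 31.7. The reverse case, pre-granulosa calls listed at a Sertoli score of 0, numbered 155, with a median of 234.8 kb (209.1 to 262.6). Whether a listed 0 is a low score or a missing value was not tested.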

How the results depend on the processing

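The limits of the rule set the size of the set. With a Sertoli score of at least 7 there were 1189 contacts, with a pre-granulosa score below 1 there were 1663, and below 3 there were 6908, against 4331. The median distance of 64.1 kb was 73.9, 76.8 and 58.6 kb under these limits, 74.2 kb with contacts listed at 0 kept, 74.3 kb from 20 kb on, and 69.7 kb with the original baits. The share in runs (10.4%) was 5.30%, 3.25% and 16.7% under the same 3 limits and 17.2% with 1 bin between allowed. The share beside a pre-granulosa call (23.4%) was 29.3%, 19.4% and 26.1% under them, 34.0% beside a pre-granulosa score of 3 or more, and 10.7% with the original baits. The share with a Sertoli score of at least 5 in an overlapping bin with the original baits (65.8%) was 57.8% where at least 50% of the bin had to be covered, an alternative chosen after seeing the data. The share of bins in a gene (64.5%) was 57.5% for whole bins. Fewer or more contacts enter under another limit; beyond that, the cause was not tested. Of 35 comparisons, 15 stayed within the counting interval, or within 1.5 times for the count, and 20 moved.

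No paired analysis was possible because the replicate numbers in the labels have no columns of their own, and for the same reason no library was left out. Read depth is unknown, so its limits were not measured, and differences between the cell types compare 1 pool with 1 pool.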
